A study of Mus musculus with 6 samples.

Results

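The miR-30 family was followed in mouse embryonic stem cells (ESCs) as 9 mature miRNAs, taken by name from the 1907 mature miRNAs of the count table. They comprised 5 products of the 5p arm (mmu-miR-30a-5p, mmu-miR-30b-5p, mmu-miR-30c-5p, mmu-miR-30d-5p and mmu-miR-30e-5p) and 4 of the 3p arm (mmu-miR-30a-3p, mmu-miR-30c-2-3p, mmu-miR-30d-3p and mmu-miR-30e-3p). The members were listed by name, with earlier results of these data known. The 3 other rows named miR-30 (miR-30b-3p, miR-30c-1-3p and miR-30f) were not members and are given separately. Small RNA was sequenced from 2 C57BL/6 ESC lines, RB18 and RB20, in 3 media with 1 library per line and medium, and each library was made from a pool of 3 cultures. Serum medium held 15% fetal bovine serum. The serum-free 2i medium contained 1 µM PD0325901, an inhibitor of MEK, and 3 µM CHIR99021, which blocks GSK3, whereas R2i kept 1 µM PD0325901 and replaced the second compound with 10 µM SB431542, which blocks TGF-β receptors. LIF at 1000 U/ml was present in all media. Both lines had been derived in R2i with LIF, and the stable 2i and serum cultures had been passaged at least 10 times, so every serum and 2i culture descended from R2i cells. Together, 2i and R2i are called the ground-state media.

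A miRNA gene is transcribed into a hairpin, whose arms are cut out as the 5p and 3p mature strands. One strand is usually kept in the Argonaute complex, where its seed, the bases next to its 5′ end, pairs with target mRNAs. The miR-30 family is abundant in many differentiated tissues, including kidney and heart, and is known for restraining the epithelial to mesenchymal transition, partly by repressing Snai1.

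The sequences below show why the 5p strands are read as one family, and why their counts have to be compared with care. They were taken from RefSeq (GRCm38.p6), which matched 6 of the 9 members; mmu-miR-30b-5p, mmu-miR-30d-5p and mmu-miR-30d-3p are named only. The strands are written 5′ to 3′ with the seed, bases 2 to 8, in capitals.
mmu-miR-30a-5p: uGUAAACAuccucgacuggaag
mmu-miR-30e-5p: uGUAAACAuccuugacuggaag
mmu-miR-30c-5p: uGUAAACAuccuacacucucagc
mmu-miR-30a-3p: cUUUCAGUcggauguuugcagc
mmu-miR-30e-3p: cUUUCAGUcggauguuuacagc
mmu-miR-30c-2-3p: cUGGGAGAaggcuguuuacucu

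The 5p strands with a sequence shared the seed GUAAACA and the first 12 bases. Counted from 1 at the 5′ end, miR-30a-5p and miR-30e-5p differed by 1 base of 22, C13U, and miR-30a-3p and miR-30e-3p also by 1 base, G18A, with miR-30a given first. Counts of these pairs are therefore uncertain to the extent that a read with a sequencing error or an alignment mismatch could be assigned to the wrong one, and the mismatch setting is not given in the sources used here. The 3p strands fell into 2 seed groups, UUUCAGU for miR-30a-3p and miR-30e-3p, and UGGGAGA for miR-30c-2-3p. All 3 of the 5p strands began with U, as did 40.2% of the 1623 miRNAs of the table with a sequence, and all 3 of the 3p strands began with C, as did 21.2%.

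The hairpins show how the arms lie in their precursors, with the mature strands in capitals.
Mir30a: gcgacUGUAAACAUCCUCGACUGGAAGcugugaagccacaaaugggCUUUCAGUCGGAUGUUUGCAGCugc
Mir30e: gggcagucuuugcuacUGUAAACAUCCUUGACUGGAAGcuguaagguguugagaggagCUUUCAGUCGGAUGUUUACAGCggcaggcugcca
Mir30c-1: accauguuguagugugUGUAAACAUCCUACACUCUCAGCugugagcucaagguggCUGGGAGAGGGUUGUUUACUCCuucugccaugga
Mir30c-2: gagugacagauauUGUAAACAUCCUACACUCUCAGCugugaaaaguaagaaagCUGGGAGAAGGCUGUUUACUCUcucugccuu

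Mir30a lies at chr1:23272269-23272339 on the plus strand (GRCm38) and overlapped no other annotated gene. Mir30c-2, at chr1:23291701-23291784 on the same strand and 19361 bases further on, overlapped an exon of the lincRNA Gm27028. Mir30c-1 (chr4:120769534-120769622) and Mir30e (chr4:120772606-120772697) lie 2983 bases apart on the minus strand, both within an intron of Nfyc, which encodes a subunit of the NF-Y transcription factor and is transcribed from that strand. Both miR-30c genes give the same 5p strand, so the count of miR-30c-5p is a sum over 2 loci, while their 3p strands can be told apart.

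Counts assigned to miRNAs totalled between 1041858 (R2i RB18) and 3593356 (R2i RB20) per library, and in each medium the RB18 library was the smaller, so that line and depth cannot be told apart. The ESC-associated miR-290 cluster took between 33.5% and 43.5% of the counts. Of marker miRNAs of other cell types, the summed level of 6 muscle and heart miRNAs was 180 and 82.9 CPM (counts scaled to the library total) in serum and between 1.78 and 15.4 CPM in 2i and R2i, and that of 4 fibroblast miRNAs was 1490 and 1770 CPM in serum and between 2280 and 3460 CPM in 2i and R2i. The 6 blood miRNAs summed to between 740 and 5190 CPM, with miR-223-3p at 0 in all libraries, the 2 endothelial ones to between 656 and 1030 CPM, the 4 neural ones to between 757 and 1140 CPM, and liver miR-122-5p to between 0 and 3.12 CPM. The part of these markers in the results was not tested, and in such bulk samples fewer cells of a type and less RNA per cell cannot be told apart.

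The 9 members together took between 3.52% and 4.20% of the miRNA counts of a library. The share was 3.53% and 3.83% in serum (RB18 and RB20), 3.55% and 3.52% under 2i, and 4.20% and 3.72% under R2i. The mean was 3.68% ± 0.213 for serum, 3.54% ± 0.0211 for 2i and 3.96% ± 0.339 for R2i (SD, n = 2), and the serum libraries overlapped with those of the ground-state media, while both R2i libraries lay above both 2i libraries. On TMM-scaled counts the mean was 3.81% for serum, 3.58% for 2i and 3.79% for R2i, so that the order of serum and R2i turned. The widest 95% Wilson interval of a library, that of R2i RB18, ran from 4.16% to 4.24%. Such intervals cover counting error only, since reads are not independent molecules.

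Among the members, reads of miR-30e-5p outnumbered all others in every library. Levels are given as CPM scaled by edgeR's TMM factors, as read counts without correction for length, since the strands with a sequence were 22 or 23 bases long. By mean over the 6 libraries, miR-30e-5p (18650 CPM ± 2210, SD, n = 6) was followed by miR-30d-5p (5629 ± 739), miR-30a-5p (5400 ± 1428), miR-30c-5p (4571 ± 751) and miR-30b-5p (1959 ± 467). The 3p strands came next, with miR-30e-3p at 832 ± 243, miR-30a-3p at 131 ± 44.7, miR-30d-3p at 103 ± 30.2 and miR-30c-2-3p at 18.6 ± 6.26. The order was not fixed for all neighbours: miR-30d-5p exceeded miR-30a-5p in 3 of 6 libraries, miR-30a-5p exceeded miR-30c-5p in 3 of 6, miR-30a-3p exceeded miR-30d-3p in 4 of 6, and miR-30b-5p exceeded miR-30e-3p in 5 of 6. The other neighbours kept their order in all 6 libraries, with miR-30e-5p between 2.54 and 4.50 times miR-30d-5p. By count, miR-30e-5p ranked between 10th and 16th among all miRNAs of a library, and miR-30c-2-3p between 322nd and 412th.

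**Figure D1:**
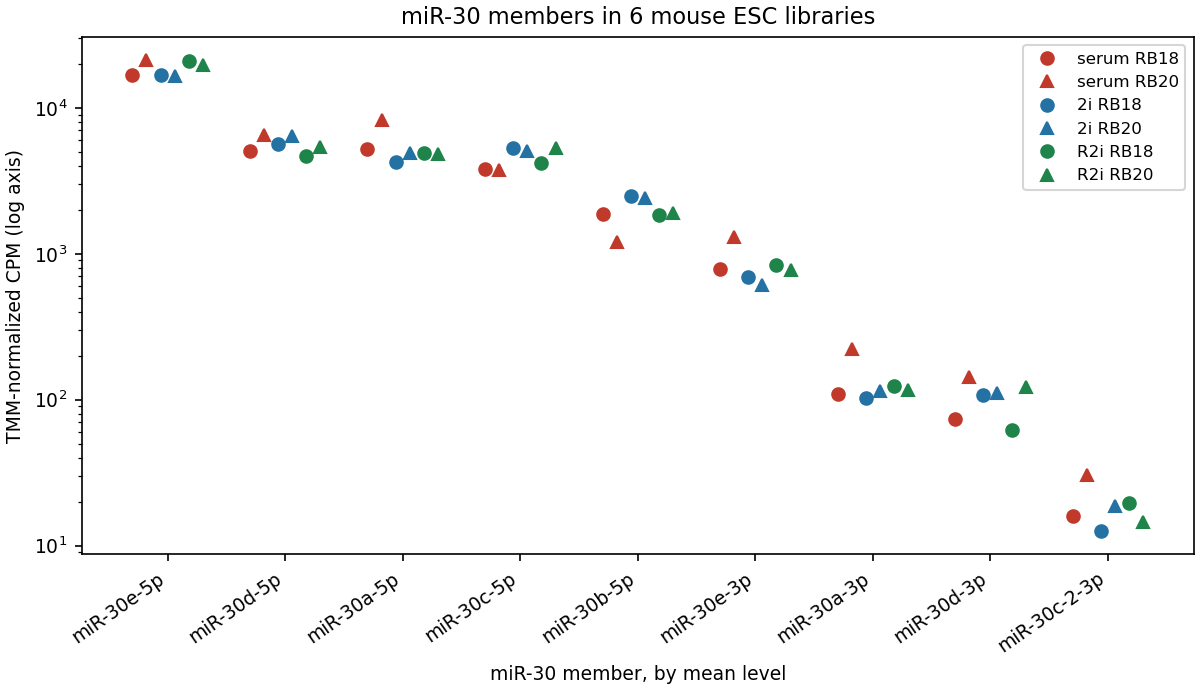
TMM-normalized CPM (log axis) of each miR-30 member in each library, with colour for the medium and symbol for the cell line. The 5p strands lie above the 3p strands, apart from miR-30e-3p in serum RB20 (1300 CPM), which lies above miR-30b-5p (1208 CPM), and serum RB20 is the highest library for 7 of the 9 members on this scale and for 5 of 9 on library totals.

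Variation over the 6 libraries was small for several members. The median SD of log2(normalized CPM + 1) was 0.374 for the members and 0.671 for the 571 miRNAs that passed the filter on low counts, and 96.3% of those had a larger SD than miR-30e-5p. The 571 were not matched to the members by level. Many of them had low counts, where counting error widens this SD. How far serum RB20 stood apart within the family depended on the scaling. With TMM it was the highest library for 7 of 9 members, against 26.6% of all tested miRNAs, and for 4 members it lay more than 1.5-fold above the next library. With library totals it was the highest for 5 of 9 members, against 18.4% of all tested miRNAs, and lay more than 1.5-fold above the next library for 0 members.

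The comparison of each ground-state medium with serum addressed whether the level of the family differs between these media. A call required more than 2-fold and a p below 0.01 in edgeR's quasi-likelihood test, adjusted by Benjamini-Hochberg over all tested miRNAs. By this rule 0 members were called, whereas 34.2% of all tested miRNAs were called between 2i and serum, and 30.6% between R2i and serum. All 9 members passed the filter. At an unadjusted p under 0.05, 2 members differed between 2i and serum, miR-30b-5p with a positive and miR-30e-3p with a negative estimate, and 0 differed between R2i and serum, against 57.6% and 49.6% of all tested miRNAs. For the mean of 2i and R2i against serum, 0 members and 37% of tested miRNAs were called, and 0 members and 57.6% of tested miRNAs had an unadjusted p under 0.05. DESeq2, run as an alternative, also called 0 members in each of these comparisons, beside 219, 187 and 221 of the 571 tested miRNAs. At an unadjusted p under 0.05 it had 2, 0 and 1 members, and all tested miRNAs were not counted at that limit for DESeq2.

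The missing calls were accompanied by small estimates. The median absolute log2 fold change of the members was 0.55 between 2i and serum, 0.33 between R2i and serum and 0.48 between the ground-state media and serum, beside 0.99, 0.85 and 0.91 for all tested miRNAs. The 95% interval lay within 2-fold in both directions for 4 of 9 members in each of these comparisons, as it did for 15.8%, 20.7% and 22.1% of all tested miRNAs. For the mean of the ground-state media these were miR-30c-5p, miR-30d-5p, miR-30d-3p and miR-30e-5p, and the intervals of the other 5 members reached beyond 2-fold. All tested miRNAs, which include many of low counts, were not matched to the members by level. All comparisons with serum share the same 2 serum libraries.

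**Figure D2:**
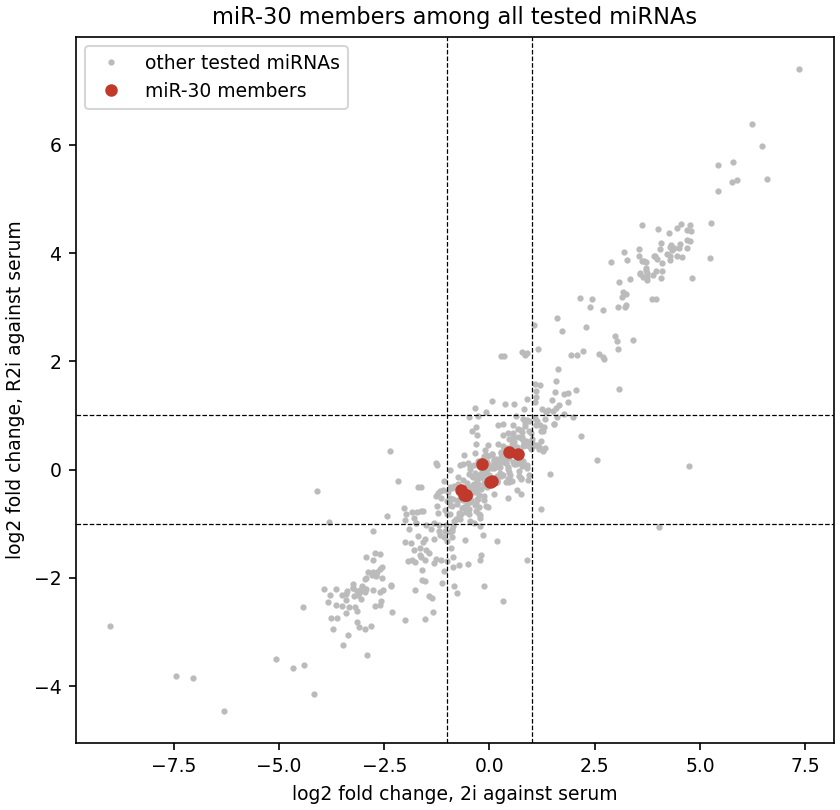
Log2 fold change of each tested miRNA for R2i against serum (vertical) plotted over that for 2i against serum (horizontal), with the 9 miR-30 members in red and dashed lines at 2-fold. The members lie near the origin, inside the 2-fold lines on both axes, while other miRNAs extend far outside them; the axes share the serum libraries.

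The most abundant member, miR-30e-5p, was close to level across media. Its normalized CPM was 16750 and 21190 in serum, 16880 and 16440 under 2i, and 20910 and 19760 under R2i, for RB18 and RB20 in that order. Serum overlapped with 2i and with R2i, whereas both R2i libraries lay above both 2i libraries, and the highest library was 1.29 times the lowest. For the ground-state media against serum, the log2 fold change was -0.04 ± 0.19 (SE; edgeR adjusted p = 0.872), with a 95% interval from -0.49 to 0.40.

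Similarly small was the difference from serum for miR-30d-5p. It stood at 5093 and 6486 CPM in serum, 5688 and 6463 CPM in 2i, and 4652 and 5389 CPM in R2i. RB20 was higher than RB18 in each medium. Serum overlapped with both other media, and both 2i libraries lay above both R2i libraries. Its log2 fold change for the ground-state media against serum was -0.07 ± 0.20 (edgeR adjusted p = 0.803).

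The serum and ground-state libraries did not overlap for 2 of 9 members, miR-30a-5p and miR-30c-5p, which differed in opposite directions, whereas 61.5% of all tested miRNAs showed no overlap. On library totals it was 1 of 9 members, miR-30c-5p, and 61.3% of all tested miRNAs, since miR-30a-5p then stood at 5516 CPM in R2i RB18 and at 5458 CPM in serum RB18. miR-30c-5p was measured at 3784 and 3766 CPM in serum, 5300 and 5070 CPM in 2i, and 4159 and 5348 CPM in R2i. All 4 ground-state libraries lay above serum, yet the log2 fold change of 0.40 ± 0.20 did not pass the test (edgeR adjusted p = 0.131; 95% interval from -0.07 to 0.86). miR-30a-5p was measured at 5212 and 8239 CPM in serum, 4228 and 4940 CPM in 2i, and 4930 and 4851 CPM in R2i. With TMM, all 4 ground-state libraries lay below serum, but serum RB20 was far above serum RB18, and the log2 fold change was -0.51 ± 0.23 (edgeR adjusted p = 0.101). Without serum RB20, it was -0.14 (adjusted p = 0.518), and without serum RB18 it was -0.71 (adjusted p = 0.0172).

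The least abundant 5p strand, miR-30b-5p, gave the smallest adjusted p of the family. Its CPM was 1875 and 1208 in serum, 2494 and 2425 under 2i, and 1856 and 1894 under R2i. Both 2i libraries lay above all others, R2i lay at the level of serum RB18, and serum RB20 was the lowest library, the reverse of its place for most members. For 2i against serum the log2 fold change was 0.67 ± 0.27 (95% interval from 0.06 to 1.29; edgeR adjusted p = 0.0666), and for R2i against serum it was 0.28 ± 0.26 (adjusted p = 0.434). The estimate depended on the serum library: without serum RB18 it was 1.102 for 2i against serum (adjusted p = 0.00565), which passes both limits of a call, and without serum RB20 it was 0.39 (adjusted p = 0.115).

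**Figure D3:**
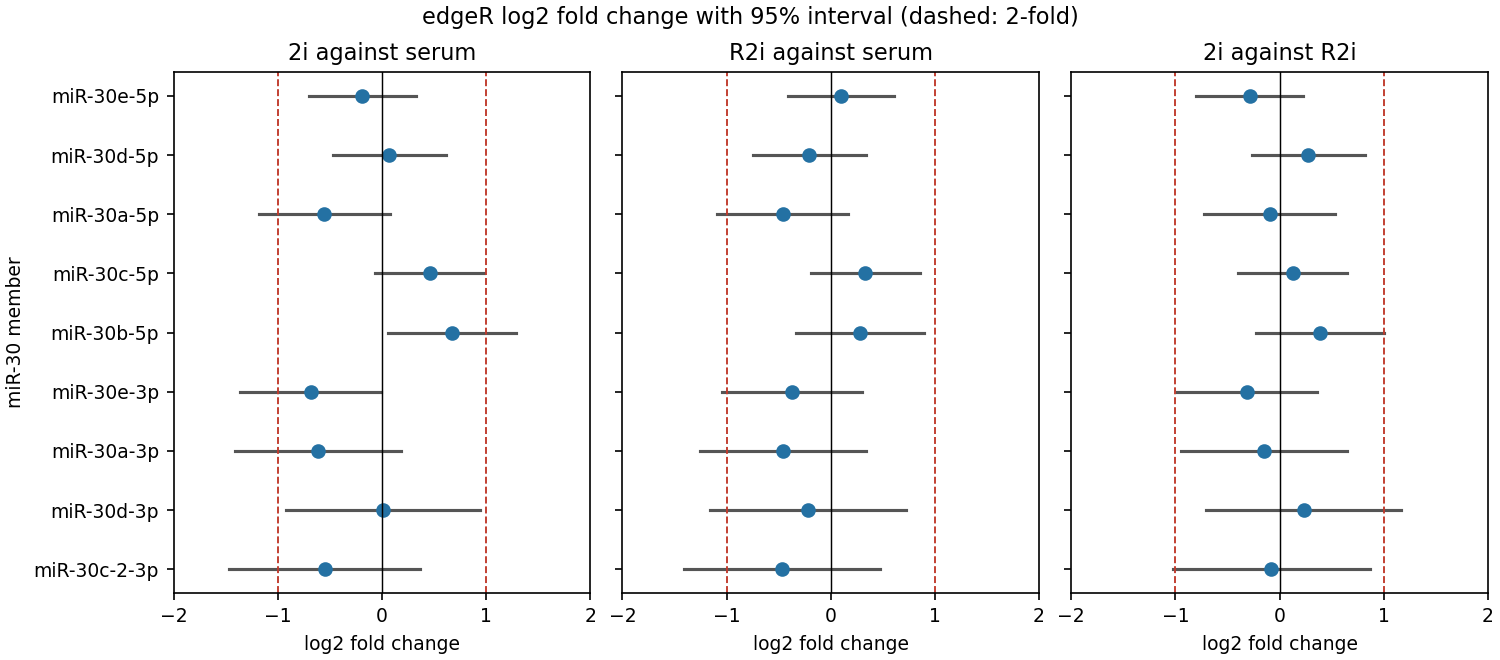
Log2 fold change (points) with the 95% interval from edgeR (bars) of each member for 2i against serum, R2i against serum and 2i against R2i, with members in order of mean level and dashed lines at 2-fold. All points lie inside the 2-fold lines, and only miR-30b-5p and miR-30e-3p in 2i against serum have intervals that exclude 0.

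The 3p strands had negative estimates for the ground-state media against serum. These moved towards 0 or above it without serum RB20, and further below 0 without serum RB18. miR-30e-3p was measured at 785 and 1300 CPM in serum, 690 and 608 CPM in 2i, and 842 and 769 CPM in R2i. Both 2i libraries lay below serum, with a log2 fold change of -0.68 ± 0.29 (edgeR adjusted p = 0.0836), while R2i overlapped with serum (-0.37 ± 0.29, adjusted p = 0.344). Without serum RB20, the log2 fold change was -0.27 for 2i and 0.04 for R2i, and without serum RB18 it was -0.93 and -0.60.

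miR-30a-3p was measured at 109 and 221 CPM in serum, 102 and 114 CPM in 2i, and 124 and 116 CPM in R2i. Only serum RB20 lay apart. The log2 fold change for the ground-state media against serum was -0.54 ± 0.29 (edgeR adjusted p = 0.157), and 0.06 without serum RB20. Without serum RB18, the estimate was -0.96 for 2i and -0.79 for R2i.

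miR-30c-2-3p was counted 23 to 61 times per library, at 15.9 and 30.2 CPM in serum, 12.6 and 18.6 CPM in 2i, and 19.7 and 14.6 CPM in R2i. Here too serum RB20 was the highest and the other libraries overlapped. The log2 fold change was -0.51 ± 0.34 (edgeR adjusted p = 0.246), and 0.03 without serum RB20. Without serum RB18, the estimate was -0.85 for 2i and -0.77 for R2i. miR-30d-3p was measured at 73.9 and 143 CPM in serum, 107 and 111 CPM in 2i, and 61.8 and 122 CPM in R2i, with log2 fold change -0.11 ± 0.35 (adjusted p = 0.826) and 0.45 without serum RB20. Without serum RB18, the estimate was -0.31 for 2i and -0.54 for R2i. In each medium miR-30d-3p was higher in RB20 than in RB18, and the media overlapped.

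The comparison of 2i with R2i, which share the MEK inhibitor, set GSK3 inhibition against TGF-β receptor inhibition. By edgeR and by DESeq2, 0 members were called and 0 had an unadjusted p under 0.05. DESeq2 called 16 of the 571 tested miRNAs. In edgeR, the smallest adjusted p was 0.470, for miR-30b-5p; 0.35% of all tested miRNAs were called in this comparison, and 18.2% had an unadjusted p under 0.05. The log2 fold changes of the members, 2i minus R2i, ranged from -0.31 for miR-30e-3p to 0.39 for miR-30b-5p. For 6 of 9 members the 95% interval lay within 2-fold, as for 35.6% of tested miRNAs, again not matched by level.

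Within the 5p pool, miR-30e-5p was the main strand in all libraries, and the share of miR-30a-5p was largest in serum. miR-30e-5p made up 51.2% and 51.8% of the summed 5p counts in serum, 48.8% and 46.5% under 2i, and 57.3% and 53.1% under R2i. The share of miR-30a-5p was 15.9% and 20.2% in serum, 12.2% and 14.0% under 2i, and 13.5% and 13.0% under R2i. The serum values of miR-30a-5p lay above all ground-state values. The share of miR-30c-5p was 11.6% and 9.21% in serum and ranged from 11.4% to 15.3% in the ground-state media, and that of miR-30b-5p was 5.73% and 2.95% in serum and between 5.08% and 7.21% in the ground-state media, so that both overlapped. miR-30d-5p made up between 12.7% and 18.3%.

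**Figure D4:**
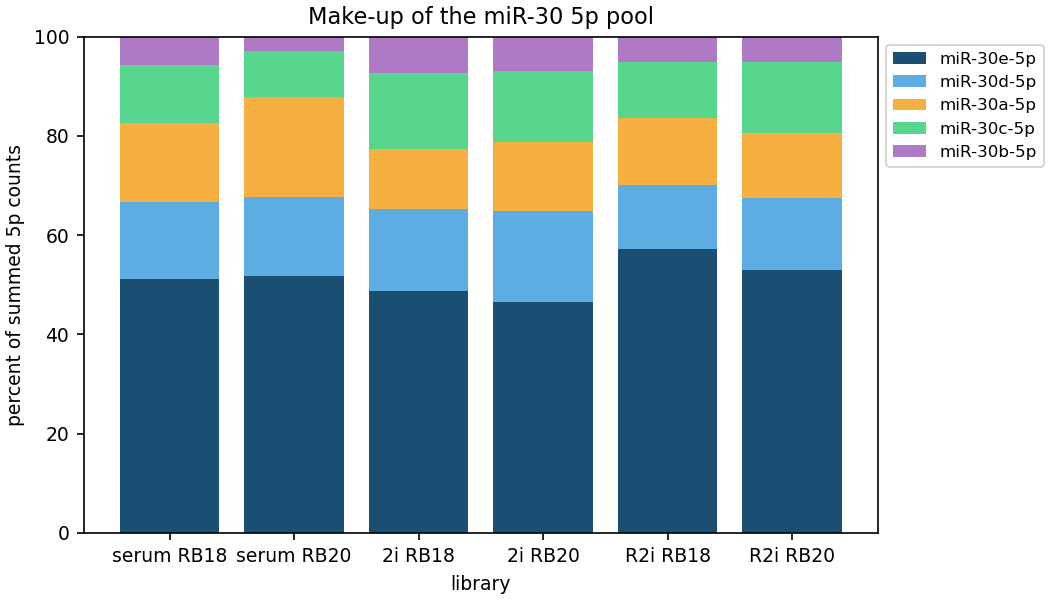
Share of each 5p strand in the summed 5p counts of the family, in percent, stacked for each of the 6 libraries. miR-30e-5p makes up between 46.5% and 57.3% in every library, and the miR-30a-5p segment is widest in serum RB20 (20.2%).

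Ratios of counts within a library do not depend on the scaling. In all, 11 ratios were formed. The two-sided exact permutation p was taken as 2 times the smaller one-sided p. With p so defined, 2 serum against 4 ground-state libraries cannot give less than 0.133, so that none could pass 0.05. The serum and ground-state libraries did not overlap in 5 of the 11, each with p = 0.133 by that exact test and 0.293 after Benjamini-Hochberg adjustment over the 11. Each of these ratios holds miR-30a-5p or miR-30e-3p, so they are not separate results. No such count was made for ratios of other miRNAs, and 61.5% of single tested miRNAs showed no overlap with TMM. miR-30c-5p reads per miR-30a-5p read numbered 0.726 and 0.457 in serum, 1.25 and 1.03 under 2i, and 0.844 and 1.1 under R2i. The difference of the mean log2 ratio, ground state minus serum, was 0.86, and 0.53 without serum RB20. miR-30a-5p per miR-30e-5p, the pair with 1 base of difference, was 0.311 and 0.389 in serum and between 0.236 and 0.301 in the ground-state media. miR-30b-5p per miR-30a-5p was 0.360 and 0.147 in serum and between 0.377 and 0.590 in the ground-state media.

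In every library, the arm ratio of miR-30e was below those of miR-30a and miR-30d. Counts of the 5p strand per count of the 3p strand ranged from 37.3 to 47.8 for miR-30a, from 44.3 to 75.3 for miR-30d and from 16.3 to 27.0 for miR-30e. For miR-30a and miR-30d, serum and ground state overlapped. For miR-30e the ratio was 21.3 and 16.3 in serum, 24.5 and 27.0 under 2i, and 24.9 and 25.7 under R2i. All ground-state values lay above serum, by 0.45 in the mean log2 ratio and by 0.26 without serum RB20. The 3p strands together made up between 2.35% (2i RB20) and 3.98% (serum RB20) of the family's counts.

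**Figure D5:**
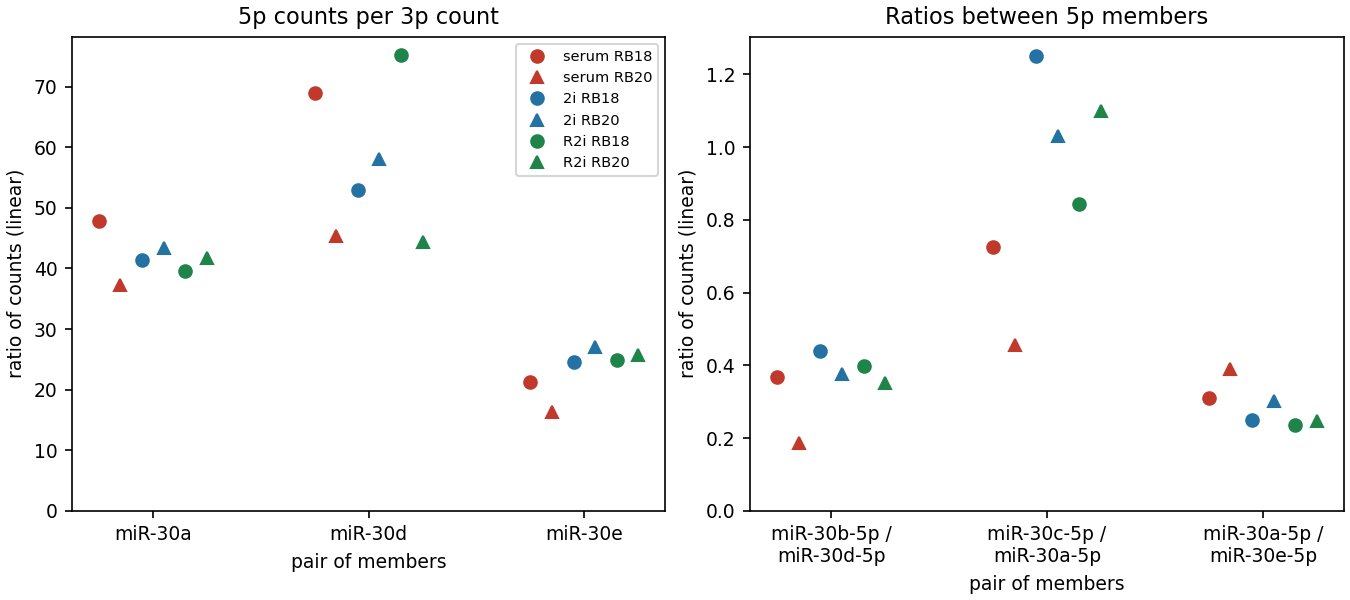
Ratio of 5p to 3p counts for 3 hairpins (left) and of counts between 5p strands (right), on linear axes from 0, with 1 point per library, colour for the medium and symbol for the cell line. The serum points lie below the others for miR-30e (16.3 and 21.3) and for miR-30c-5p to miR-30a-5p (0.457 and 0.726), and overlap with them for miR-30a, miR-30d and miR-30b-5p to miR-30d-5p.

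Strands of neighbouring genes were set side by side for the Nfyc intron. There, the 3p strand of Mir30c-1, which is not a member, was measured at 44.9 and 83.3 CPM in serum, 36.0 and 33.9 CPM in 2i, and 27.5 and 26.6 CPM in R2i. All ground-state libraries lay below serum, with a log2 fold change of -1.06 ± 0.27 for the mean of the ground-state media (edgeR adjusted p = 0.0115), which missed the limit of 0.01. Without serum RB20 the log2 fold change was -0.55 (adjusted p = 0.0866), whereas without serum RB18 (-1.36, adjusted p = 0.00317) and without a filter on low counts (-1.02, adjusted p = 0.00155) it passed both limits of a call. Its 5p product miR-30c-5p, shared with Mir30c-2, lay above serum in the same 4 libraries, and miR-30c-1-3p per miR-30e-3p was 0.0572 and 0.0641 in serum and between 0.0326 and 0.0557 in the ground-state media, again without overlap.

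Apart from miR-30c-1-3p, described above, other rows related to the family were mostly near or below the limit of detection, taken as 3 counts. The exception, miR-30b-3p, stood between 82.7 and 196 CPM, with its highest value in serum RB20. miR-30f, whose gene lies on the strand opposite to Mir30e, had 0 or 1 counts in each library. Among the 1623 miRNAs with a sequence, miR-384-5p was the only other one with the 5p seed GUAAACA, with 0 to 6 counts per library, and miR-6958-5p and miR-30c-1-3p were the only others with the seed UGGGAGA, the former with 0 or 1 counts.

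The summed normalized CPM of the 5p strands was 32710 and 40890 in serum, 34590 and 35330 under 2i, and 36510 and 37240 under R2i, with the highest library 1.25 times the lowest. For 530 tested miRNAs outside the family with a count in every library, log2 levels centred on their mean were compared with those of this sum. The 3 nearest were miR-291a-5p, miR-425-3p and miR-1249-3p, at root mean square differences of 0.11, 0.112 and 0.115 over the 6 libraries, beside a median of 0.633. Because the sum itself varied little, this distance picks miRNAs with little variation. Whether they rise and fall with the sum was not tested.

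Other broadly expressed miRNAs of differentiated tissues were counted as a list of 30, which included let-7, miR-26, miR-29 and miR-23. All 30 were tested, and for the ground-state media against serum 2 were called higher and 5 lower by edgeR, beside 37% of all tested miRNAs. DESeq2 called 8, beside 221 of the 571 tested miRNAs. Between 2i and serum, edgeR called 2 higher and 3 lower, beside 34.2% of all tested miRNAs, and DESeq2 called 11, beside 219 of 571. Between R2i and serum, edgeR called 0 higher and 5 lower, beside 30.6% of all tested miRNAs, and DESeq2 called 6, beside 187 of 571. For the ground-state media against serum, their median log2 fold change was 0.09, beside -0.11 for the miR-30 members and -0.02 for all tested miRNAs. The largest differences in the list were those of miR-125a-5p (-1.83 ± 0.35, edgeR adjusted p = 0.00296) and miR-23a-3p (-1.79 ± 0.26, adjusted p = 0.000702). Of the 14 strands of the miR-290 cluster, 0 were called in any comparison by edgeR or DESeq2, and 4 had an unadjusted p under 0.05 in edgeR for the ground-state media against serum, a comparison in which 37% of all tested miRNAs were called and 57.6% had an unadjusted p under 0.05. The largest differences in the cluster were those of miR-292a-5p (-0.79, adjusted p = 0.0217) and miR-291b-5p (0.70, adjusted p = 0.022).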

How the data were processed

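Small RNA-sequencing libraries of 2 ESC lines in 3 media (6 libraries) were analysed. The authors deposited whole-number counts per mature miRNA and a table of log2 values, which equal log2(count / size factor + 1) within 0.005 over 1233 miRNAs. The submitters' processing notes name FastQC 0.11.5, cutadapt 1.3, Bowtie 1.1.2, featureCounts 1.5 and mm10; their settings are not given in the sources used here. How reads that match several miRNA genes were counted can change the split between near-identical members.

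For the tests of counts, R 4.3.3 was used with edgeR 4.0.16 (TMM; filterByExpr with minimum count 10 and minimum total 15, which kept 571 of 1907 miRNAs; quasi-likelihood test, 1 coefficient per medium, all 6 libraries), with Benjamini-Hochberg adjustment over the 571. A call needed adjusted p under 0.01 and more than 2-fold. SE is log2 fold change over the root of F. The shared biological coefficient of variation was 24.6%. On simulated counts, 93.9% of 181 miRNAs changed 4-fold (530 tested) and 66.7% of 183 changed 2.5-fold (534 tested) were called for ground state against serum. For 2i against serum the shares were 87.8% and 43.2%, and for R2i against serum 84.5% and 45.9%. The simulation gave every miRNA this shared variation, set as many changes up as down, and held no difference between lines. Changes under 2-fold, as estimated for the members, were not simulated. With 2 libraries per medium, p-values rest on the spread shared between miRNAs, and the libraries differ in line, pool and sequencing together. A count of 3 was taken as the floor (0.835 to 2.88 CPM).

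Libraries of the same line in different media are paired by that line. The RB20 minus RB18 differences of the 571 miRNAs correlated at 0.211 between serum and 2i, -0.128 between serum and R2i, and 0.243 between 2i and R2i. The study merged the lines, so the block is an alternative. Others were library totals instead of TMM, other filters and limits, fewer libraries in the fit, DESeq2 1.42.0, limma 3.58.1 applied to the log2 table, and leaving out the 5 most abundant miRNAs. Library totals for rankings and overlaps, ratios without a serum library, and the alternatives for miR-30c-1-3p were added after seeing the data.

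The members and lists were chosen with earlier results of these data known. All 9 members are named, with other rows named miR-30, rows sharing a member's seed, the 3 nearest patterns, and the 2 miRNAs per list with the largest difference between ground state and serum. Gene positions are from GENCODE M21 (GRCm38). Figures were drawn with matplotlib 3.10.9, and Python 3.11.15 was used with scipy 1.17.1, numpy 2.4.6 and pandas 2.3.3.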

Additional observations from a re-analysis of the deposited data

Results flagged for a closer look

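The highest-expressed member, miR-30e-5p, was flagged because, on the TMM scale, the lines moved in opposite directions. The non-member miR-30b-3p did so too, by 0.422 (2i) and 0.0386 (R2i) in RB18 and by -0.821 and -0.631 in RB20. For miR-30e-5p, 1 of the differences was close to 0. In RB18 the log2 normalized CPM of miR-30e-5p was higher than in serum of the same line by 0.0118 in 2i and 0.32 in R2i. In RB20 the differences were -0.366 in 2i and -0.101 in R2i. Scaled by library totals, the differences were -0.0544 and 0.416 in RB18 and -0.252 and 0.013 in RB20 (2i and R2i), so that the lines no longer moved in opposite directions. The edgeR interaction of line with ground state against serum was -0.40 ± 0.35 (SE, RB20 minus RB18). That fit held 1 serum library per line, so its spread came only from taking 2i and R2i of a line as replicates. A difference between 2i and R2i enters that spread, so the fit cannot decide whether the lines differ.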

How the results depend on the processing

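The count of 0 called members was the same under all alternatives run for R2i against serum, 2i against R2i and ground state against serum; for 2i against serum it ranged from 0 to 1 when a library was left out, the 1 being miR-30b-5p without serum RB18. With cell line as a replicate block, 0 members were called in each comparison. The share of the family in the counts rose to 6.765% (serum), 7.008% (2i) and 7.454% (R2i) when the 5 most abundant miRNAs were taken out of the total, which shrinks the denominator, and was 3.585% for 2i on TMM-scaled CPM, beside 3.81% for serum and 3.79% for R2i. Of 495 alternative log2 fold changes of members, 467 kept direction and side of the threshold, 27 reversed, 20 of them on leaving out a library, and 1 became a call; no reversed estimate was a call, and its cause was not tested. For ground state against serum, miR-30d-5p was 0.0027 with library totals and 0.0226 with at least 10 counts in every library, and miR-30e-5p was 0.0221 with DESeq2, 0.0331 with library totals, 0.0494 with at least 10 counts in every library, 0.0075 with limma and 0.0164 without the 5 most abundant miRNAs. On leaving out a library, the ranges were -0.79 to 0.14 (R2i against serum) and -0.87 to 0.0640 (ground state against serum) for miR-30a-3p; -0.40 to 0.16 (2i against R2i), -0.77 to 0.0683 (R2i against serum) and -0.81 to 0.0328 (ground state against serum) for miR-30c-2-3p; -0.00565 to 0.32 for miR-30c-5p (2i against R2i); -0.11 to 0.82 (2i against R2i), -0.31 to 0.56 (2i against serum), -0.81 to 0.34 (R2i against serum) and -0.42 to 0.45 (ground state against serum) for miR-30d-3p; -0.0256 to 0.25 (2i against serum) and -0.15 to 0.12 (ground state against serum) for miR-30d-5p; -0.60 to 0.0358 for miR-30e-3p (R2i against serum); and -0.12 to 0.14 for miR-30e-5p (ground state against serum). With library totals, chosen after seeing the data, serum RB20 was the highest library for 5 instead of 7 members, and serum and ground state did not overlap for 1 member instead of 2.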

Other observations

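The 5p to 3p ratio of miR-30b, whose 3p strand is not among the 9 members, was 22.7 and 6.17 in serum, 22.5 and 21.9 under 2i, and 21.9 and 15.0 under R2i. Serum RB20 gave the lowest value, and on TMM-scaled CPM it had the lowest level of the 5p strand (1208) and the highest of the 3p strand (195.8). The ratio of the 2 miR-30c 3p strands, miR-30c-1-3p to miR-30c-2-3p, was 2.83 and 2.75 in serum and between 1.39 and 2.85 in the ground-state media, on 23 to 168 counts per strand and library.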
